A study of Mus musculus with 16 samples.

Results

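Dorsal whole skin of mice that had received only the solvent dimethyl sulfoxide (DMSO, the vehicle of the study) was compared at day 5 with skin taken at day 0. The comparison holds 11 of the 16 arrays of the series, chosen by their titles: 2 arrays of vehicle skin at day 5, from mice 2 and 3, and all 9 arrays of skin at day 0, from mice 1 to 9. All mice were female C57/B6, an inbred black laboratory strain (the array titles write C57/B7), and were 8.5 weeks old at day 0, when an untreated biopsy was taken. Mice 2 and 3 then received topical DMSO daily for 4 days, and a second biopsy was taken when they were killed at day 5. The other 5 arrays are skin at day 5 after topical ruxolitinib (mice 4 and 6) or tofacitinib (mice 7, 8 and 9), both inhibitors of Janus kinases. They served to estimate the spread and, at the end, as a comparison at the same age and time, and mouse 7, grouped by its title, has ruxolitinib in its free-text description. The amount of DMSO, the distance between the biopsies and the hour of sampling were not given in the sources used here, and skin at day 5 without solvent is not analysed here. The effects of the solvent, of the earlier biopsy, of repeated handling and of 5 days of age and hair cycle therefore cannot be told apart. A difference in the layers that each biopsy took in cannot be told apart from them either.

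Skin is layered. Epidermal keratinocytes are born in the basal layer, are anchored there by hemidesmosomes, and cornify as they move outward. Below lie dermal fibroblasts with collagen, hair follicles, vessels and nerves, then fat, and in the mouse a thin sheet of striated muscle, the panniculus carnosus. After a wound, keratinocytes at its edge are known to switch on stress keratins, AP-1 transcription factors (dimers of Fos and Jun proteins), EGF receptor ligands and stromelysins, and vessels and fibroblasts follow. Skin of young adult mice is commonly in the resting phase of the hair cycle, and plucking or wounding can start growth.

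The values are the deposited log2 values per probe set, so a difference of 1 is a doubling, and each gene is read by its brightest probe set. Control probe sets without a target reached at most 2.43, which marks the background here. Values are compared within a gene only. A gene needed a value above 4 in at least 2 arrays, so genes dim at day 0 could enter only through day 5 arrays in which they are high. In the same way, genes dim in vehicle skin could enter only through other arrays in which they are high. Rises and falls of such genes are thus in part a result of the filter. Each ± is a standard error, and the tests are from 1 limma fit over 12087 genes, with p values adjusted over all of them and a gene said to rise or fall at an adjusted p under 0.05. With 2 vehicle mice the spread was estimated largely from the other groups. In bulk tissue, fewer cells of a type and less RNA per cell cannot be told apart.

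Across probe sets the day 0 arrays correlated with each other at 0.978 to 0.996, the 2 vehicle arrays at 0.991, and vehicle with day 0 arrays at 0.946 to 0.977. Keratinocyte markers were bright in every array (basal Krt14 at 12.62 or above in the 11 arrays). The day 0 arrays differed in markers of deep layers. Those of mice 1, 3, 8 and 9 had adipocyte list means of 7.19 to 8.88, against 9.72 to 10.41 in mice 2, 4, 5, 6 and 7, and their endothelial and pericyte list means were also the lowest while their basal keratinocyte means were the highest. The vehicle arrays lay at 10.51 and 10.58, and mouse 3's own day 0 array is one of the 4. Results were therefore also computed with the day 0 arrays of mice 2, 4, 5, 6 and 7 alone, called the 5 day 0 arrays below.

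Between day 0 and day 5, 6178 of the 12087 genes changed (51.1%), 2685 of them higher (22.2%) and 3493 lower (28.9%) in vehicle skin, and the median log2 difference over all genes was -0.05. The counts of each list below are read against those shares. In 6109 genes (50.5%) both vehicle arrays lay outside the range of the 9 day 0 arrays. Of the genes that changed, 6162 moved the same way in mouse 2 and in mouse 3 against each one's own day 0 array. Over all 12087 genes, 4602 were higher in both mice and 5326 lower in both. The same arrays entered the calls, so this agreement was largely built in and is not separate support. With the mouse as a fixed block (the mouse block below), in which only animals sampled on both days bear on the difference, 3701 genes changed, and with only the 4 arrays of mice 2 and 3 in that fit (the 4 arrays below) the count was 2604. Without vehicle mouse 2 it was 3470 and without mouse 3 it was 4001. With the 5 day 0 arrays it was 5262. Where a list's count or a gene's call or value depended on one of these choices (a lost call, or a change of more than 1.5 times), the value under it stands after the list's median or the gene's p, and so does a list's median that moves as far with no filter on dim probe sets. For the Janus kinase and BMP lists the counts without a vehicle mouse are only said to be fewer. A fit with 1 vehicle mouse takes that mouse to vary like the other groups.

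**Figure D1:**
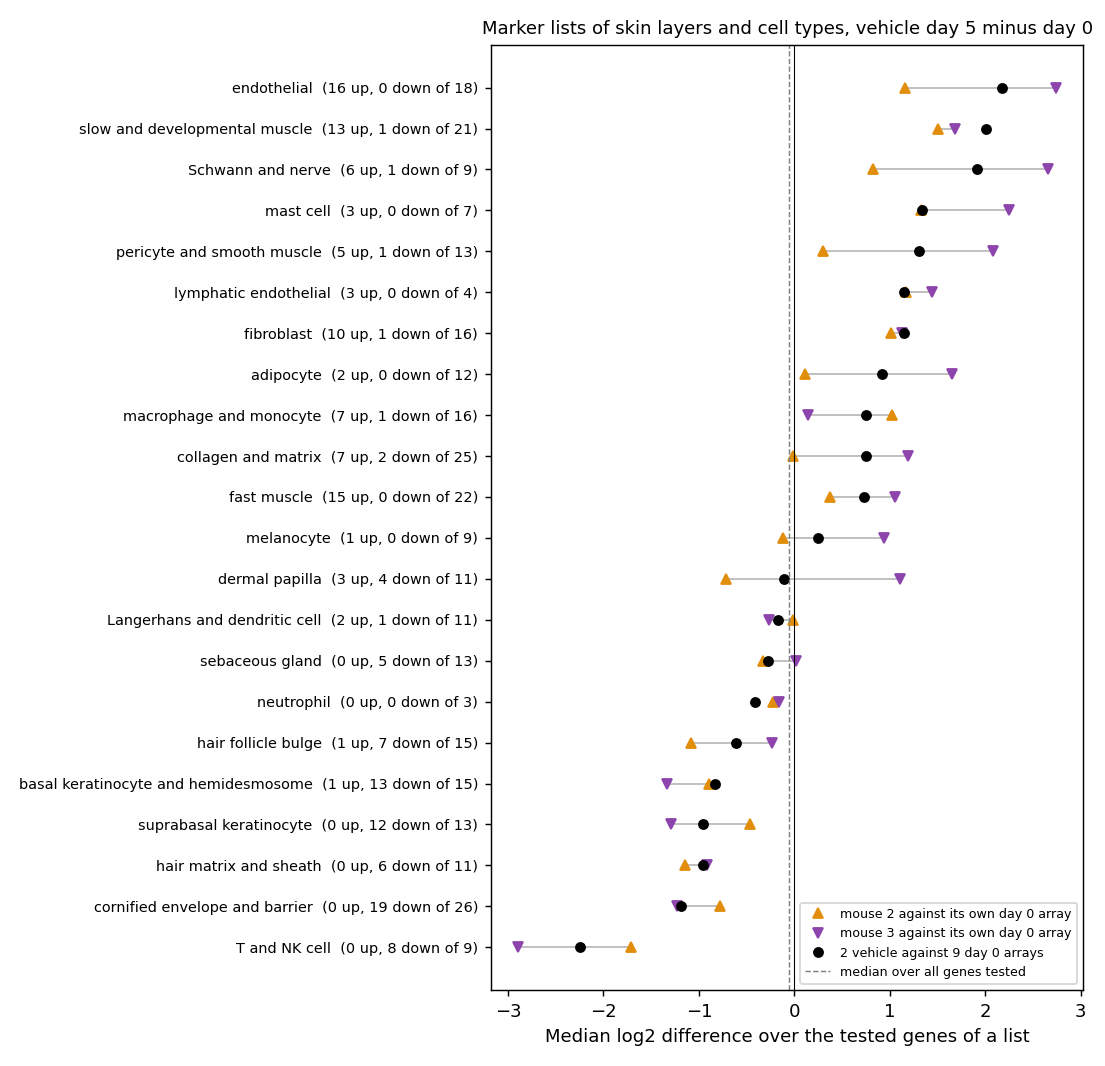
Median log2 difference (horizontal axis) over the tested genes of each marker list of a skin layer or cell type, with the counts of members that rose and fell at an adjusted p under 0.05. Black points compare 2 vehicle with 9 day 0 arrays, and triangles each vehicle mouse with its own day 0 array. Endothelial markers lie at 2.17 and T and NK cell markers at -2.24 (-0.52 with no filter on dim probe sets), and the triangles lie far apart for adipocyte, pericyte and dermal papilla markers.

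Epidermal genes were lower from the basal layer to the surface. Of 15 basal keratinocyte and hemidesmosome genes 13 fell and 1 rose (median -0.83; 1 higher and 8 lower with the 4 arrays). Itgb4, the integrin chain of hemidesmosomes, was 7.77 to 9.22 at day 0 (median 8.66) and 6.10 and 6.06 in vehicle mice 2 and 3, so the groups did not overlap. It fell by 2.57 ± 0.33 (adjusted p = 3.27e-05). Lama3, a chain of the laminin that hemidesmosomes bind, fell by 2.04 ± 0.30 (adjusted p = 9.65e-05), and Krt15, a keratin of basal cells and of the follicle bulge, by 1.36 ± 0.15 (adjusted p = 1.05e-05). The exception was Itgb1, the integrin chain of focal contacts in many cell types, at 8.91 to 9.52 at day 0 (median 9.40) and 10.40 and 10.86 in vehicle skin, which rose by 1.29 ± 0.22 (adjusted p = 3.55e-04). In the suprabasal list 12 of 13 genes fell (median -0.95; 0 higher and 6 lower with the mouse block, 0 and 3 with the 4 arrays, 0 and 7 without vehicle mouse 3). Krt78, a keratin of the upper layers, read 10.52 to 11.996 at day 0 (median 11.27) against 9.08 and 9.16. It fell by 2.11 ± 0.31 (adjusted p = 1.05e-04).

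At the surface, 19 of 26 cornified envelope genes fell and none rose (median -1.19; 0 higher and 11 lower with the 4 arrays). Lce1l, a late envelope protein, was 11.74 to 12.57 at day 0 (median 12.13) and 10.15 and 9.89 in the vehicle mice, without overlap, and fell by 2.14 ± 0.25 (adjusted p = 1.82e-05). Lor, the major envelope protein loricrin, did not pass at -0.37 ± 0.16 (adjusted p = 0.0626), nor did Flg, the filament-aggregating filaggrin, at -0.34 ± 0.39 (adjusted p = 0.486). For Lor, 12.79 in mouse 2 lay within the day 0 range of 12.62 to 13.17 and 12.19 in mouse 3 below it. Enzymes of the barrier lipids fell in 9 of 21 cases (median -0.38; 0 higher and 4 lower with the 4 arrays, 0 and 4 without vehicle mouse 3), among them Acer1, an epidermal ceramidase, by 0.79 ± 0.13 (adjusted p = 2.17e-04, but 0.0696 with the 4 arrays). Against 28.9% of all genes, that is a smaller excess than among the envelope genes. The cell contacts fell too, with 11 of 18 desmosome and tight junction genes lower and 1 higher (median -0.63; 1 higher and 5 lower with the mouse block, 0 and 4 with the 4 arrays, 0 and 11 without vehicle mouse 2, 0 and 5 without vehicle mouse 3). Pkp3, a plakophilin of the desmosomal plaque, was 10.94 to 11.61 at day 0 (median 11.30) and 9.67 and 9.50 without overlap, and fell by 1.71 ± 0.18 (adjusted p = 7.32e-06). Dsp, the plaque protein desmoplakin, stood at 0.01 ± 0.10 (adjusted p = 0.946) on its brightest probe set and at -1.41 to -0.17 on its other probe sets.

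Against this, a set of genes known from wound edges rose. Of 16 wound-edge genes 8 rose and 2 fell (median 0.98; 5 higher and 2 lower without vehicle mouse 2, 6 and 1 without vehicle mouse 3). Sprr1b, a small proline-rich envelope protein of stressed epidermis, was 4.51 to 8.74 at day 0 (median 7.28) and 11.16 and 10.90 in vehicle mice 2 and 3, above every day 0 array. It rose by 4.02 ± 0.78 (adjusted p = 8.51e-04). Krt16, the stress keratin, was 6.20 to 8.32 at day 0 (median 7.69) and 11.08 and 11.40, with no overlap. Its partner Krt6a was already bright at 10.96 to 11.49 and rose by 0.66 ± 0.17 (adjusted p = 0.00457, but 0.0576 with the mouse block, 0.127 with the 4 arrays, 0.0654 without vehicle mouse 2), while Krt17, a keratin of follicles and wounded skin, fell by 1.13 ± 0.17 (adjusted p = 1.52e-04). The keratins linked to wounding thus moved in both directions. Plaur, the receptor that holds urokinase at the cell surface, was 2.77 to 3.35 at day 0 (median 3.13) and 4.45 and 3.83, and rose by 1.05 ± 0.18 (adjusted p = 3.48e-04).

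Matrix proteases moved in both directions. Among 13 metalloproteinases, inhibitors and plasminogen activator genes 6 rose and 2 fell (median 1.05; medians of 0.68 without vehicle mouse 2 and 0.24 over 21 genes with no filter). Stromelysins had the largest rises of the list. Mmp10, stromelysin 2, was 2.74 to 4.44 at day 0 (median 3.51) and 8.76 and 8.19 in the vehicle mice, a rise of 5.02 ± 0.50 (adjusted p = 4.36e-06) or 32.5-fold, and 5.80 and 4.68 against the mice's own day 0 arrays. Mmp3 was 5.71 to 6.84 at day 0 (median 6.38) and 10.34 and 9.41, a rise of 3.53 ± 0.38 (adjusted p = 8.50e-06). In both genes the lowest vehicle array lay well above the highest day 0 array. Mmp9, the gelatinase linked to leukocytes and migrating keratinocytes, was 4.67 to 7.50 at day 0 (median 5.79) and 3.33 and 2.56, and fell by 2.999 ± 0.60 (adjusted p = 9.91e-04), and Mmp14, a membrane-bound protease, fell by 1.52 ± 0.24 (adjusted p = 1.62e-04). The other probe set of Mmp9 differed by -0.83. Adamts1, a secreted protease, rose by 1.73 ± 0.26 (adjusted p = 1.20e-04).

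The promoters of Mmp10, Mmp3 and Sprr1b are shown because all of them hold the AP-1 motif and the genes that rise with them include AP-1 subunits. The 250 bases before the start site are from RefSeq (GRCm38.p6), 5′ to 3′ on the gene's strand. Capitals mark the AP-1 motif and the letters TATAAA of the TATA box.
Mmp10 (chr9:7502092-7502341, plus strand): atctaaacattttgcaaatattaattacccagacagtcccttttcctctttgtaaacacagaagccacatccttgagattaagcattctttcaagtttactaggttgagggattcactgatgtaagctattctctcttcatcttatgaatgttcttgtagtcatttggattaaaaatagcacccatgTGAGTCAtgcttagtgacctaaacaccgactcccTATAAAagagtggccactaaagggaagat
Mmp3 (chr9:7445572-7445821, plus strand): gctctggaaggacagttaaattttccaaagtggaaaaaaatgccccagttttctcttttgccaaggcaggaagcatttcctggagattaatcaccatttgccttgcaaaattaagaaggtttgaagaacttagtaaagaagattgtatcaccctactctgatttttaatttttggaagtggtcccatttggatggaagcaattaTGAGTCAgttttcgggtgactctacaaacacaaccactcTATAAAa
Sprr1b (chr3:92438780-92439029, minus strand): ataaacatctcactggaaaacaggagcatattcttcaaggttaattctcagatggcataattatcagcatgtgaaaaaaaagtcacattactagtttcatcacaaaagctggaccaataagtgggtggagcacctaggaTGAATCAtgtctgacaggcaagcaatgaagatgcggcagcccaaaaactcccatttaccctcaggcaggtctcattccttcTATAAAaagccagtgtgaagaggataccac
The AP-1 match ends 57 bases before the start site in Mmp10, 40 in Mmp3 and 105 in Sprr1b. The search was for TGAGTCA with any base in its middle place, which reads the same on both strands. The match is TGAGTCA in both protease genes and TGAATCA in Sprr1b. The TATA box was searched on both strands as TATAAA, and these letters lie between the AP-1 match and the start site in each. They begin 29 bases before the start site in Mmp10 and 30 in Sprr1b, but only 7 in Mmp3. Whether they serve as a TATA box at that annotated start was not tested. Over the same window an AP-1 match was found in 6 of 10 wound-edge genes with a promoter in the table, in 4 of 9 of the protease list, in 2 of 13 of the largest rises, in 1 of 10 of the largest falls and in 5.73% of the 9734 tested genes with a promoter. It was also found in 8 of 20 interferon-stimulated genes, of which none rose, and in none of the 21 mitosis, 17 DNA replication or 11 class I genes. A match is only a description of these letters.

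AP-1 and immediate early genes rose in 6 of 16 cases and fell in 1 (median 0.27; 1 higher and 1 lower with the mouse block, 4 and 0 with the 4 arrays, 3 and 1 with the 5 day 0 arrays, 2 and 2 without vehicle mouse 2, 4 and 0 without vehicle mouse 3, and a median of 0.11 over 18 genes with no filter), beside rises in 22.2% of all genes. Fosl1, the AP-1 subunit Fra-1, was 2.56 to 8.47 at day 0 (median 3.72) and 9.68 and 9.34 in vehicle mice 2 and 3. The day 0 maximum of 8.47 came from mouse 7. Fosl1 rose by 5.29 ± 1.02 (adjusted p = 7.86e-04), and its other probe set by 1.10. Nr4a3, an early-response nuclear receptor, was 5.55 to 10.08 at day 0 (median 6.51) and 11.83 and 10.62, again with its day 0 maximum in mouse 7, and rose by 4.46 ± 0.85 (adjusted p = 7.37e-04). Maff, another AP-1 partner, was 3.77 to 6.08 at day 0 (median 5.60) and 7.51 and 8.01 and rose by 2.29 ± 0.46 (adjusted p = 0.00104, but 0.0521 with the mouse block). Fos itself was 8.97 to 12.27 at day 0 (median 9.63) and 12.50 and 11.97, so mouse 3 lay within the day 0 range, at a difference of 1.95 ± 0.68 (adjusted p = 0.0275, but 0.0953 with the 5 day 0 arrays, 0.179 without vehicle mouse 2, 0.0776 without vehicle mouse 3, a difference of 1.10 with an adjusted p of 0.169 with the mouse block, a difference of 1.10 with an adjusted p of 0.0729 with the 4 arrays). Fosb, at 1.88 ± 1.23 (adjusted p = 0.212), did not pass. In mouse 7 the day 0 values of Fos, Fosb, Atf3, Fosl1 and Nr4a3 all stood above the other 8 day 0 arrays, and without that array the list count was 8 higher and 1 lower.

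In the EGF receptor system, which passes growth signals in basal keratinocytes, receptors fell and ligands moved both ways. Of 11 genes 3 rose and 5 fell (median -0.44; 1 higher and 4 lower without vehicle mouse 2, 1 and 4 without vehicle mouse 3, and a median of -0.02 over 13 genes with no filter). Epgn, the ligand epigen, was 5.29 to 9.03 at day 0 (median 6.80) and 10.14 and 10.47 in the vehicle mice, above every day 0 array. It rose by 3.26 ± 0.71 (adjusted p = 0.00179). Hbegf, the heparin-binding ligand, rose by 1.75 ± 0.50 (adjusted p = 0.0100, but 0.0860 without vehicle mouse 2 and 0.0823 without vehicle mouse 3) and Egf by 2.04 ± 0.56 (adjusted p = 0.00802, but 0.0760 without vehicle mouse 2, 0.0589 without vehicle mouse 3, a difference of 1.28 with the 5 day 0 arrays). Of the receptors, Erbb2 was 8.27 to 9.31 at day 0 (median 8.59) and 6.50 and 6.31 without overlap, and fell by 2.32 ± 0.33 (adjusted p = 7.53e-05), Erbb3 fell by 1.16 ± 0.22 (adjusted p = 6.86e-04) and Egfr by 0.92 ± 0.20 (adjusted p = 0.00189, but 0.0517 with the mouse block, 0.0514 with the 4 arrays, 0.0534 without vehicle mouse 2). The ligands Btc (betacellulin) and Ereg (epiregulin) fell as well, by 2.45 ± 0.38 (adjusted p = 1.55e-04) and 1.36 ± 0.38 (adjusted p = 0.00864, but 0.167 without vehicle mouse 3).

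Proliferation genes were lower. In the mitosis list 24 of 25 genes fell and none rose (median -2.29, with -2.06 in mouse 2 and -2.19 in mouse 3 against their own arrays), and in the DNA replication list 11 of 21 (median -0.70; 0 higher and 6 lower with the mouse block, 0 and 7 without vehicle mouse 3). Bub1b, a kinase of the spindle checkpoint, was 6.83 to 7.77 at day 0 (median 7.01) and 4.16 and 3.97 in vehicle mice 2 and 3. It fell by 3.08 ± 0.34 (adjusted p = 1.11e-05). Ccnb2, the mitotic cyclin B2, was 7.30 to 8.43 at day 0 (median 7.83) and 4.21 and 4.83, and fell by 3.35 ± 0.50 (adjusted p = 1.10e-04). No vehicle array overlapped the day 0 range in either gene. Tk1, the thymidine kinase of S phase, was 6.93 to 8.06 at day 0 (median 7.47) and 4.86 and 4.67, and fell by 2.68 ± 0.52 (adjusted p = 8.51e-04). Mki67, the proliferation antigen, fell by 1.90 ± 0.27 (adjusted p = 7.49e-05). Nusap1, a spindle protein, differed between probe sets, at -3.83 on the brighter and -0.30 on the other, and so did Kif11, a spindle motor, at -2.66 and -0.93.

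Promoters of mitotic genes are known for CCAAT boxes, bound by NF-Y, and for a cell cycle element with the letters TTTGAA. The promoters of Bub1b and Ccnb2 are shown to place these letters, in capitals on either strand, in the same RefSeq window and build as above.
Bub1b (chr2:118597961-118598210, plus strand): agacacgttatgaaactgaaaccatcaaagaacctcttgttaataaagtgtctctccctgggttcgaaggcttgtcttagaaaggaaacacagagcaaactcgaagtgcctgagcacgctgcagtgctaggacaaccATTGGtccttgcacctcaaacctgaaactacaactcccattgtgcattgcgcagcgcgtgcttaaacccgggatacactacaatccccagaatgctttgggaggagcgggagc
Ccnb2 (chr9:70421555-70421804, minus strand): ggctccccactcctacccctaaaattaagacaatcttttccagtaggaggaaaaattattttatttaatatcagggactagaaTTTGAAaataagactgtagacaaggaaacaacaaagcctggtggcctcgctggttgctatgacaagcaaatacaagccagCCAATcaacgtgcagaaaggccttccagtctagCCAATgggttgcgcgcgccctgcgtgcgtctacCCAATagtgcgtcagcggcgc
Bub1b holds 1 CCAAT match, on the other strand, and Ccnb2 holds 3 CCAAT matches and 1 TTTGAA match. CCAAT was present in 16 of 21 mitosis genes with a promoter, in 12 of 17 DNA replication genes, in 7 of 11 immunoproteasome and class I genes and in 40% of all tested genes with one. The letters TTTGAA were present in 8 of the mitosis genes, in 2 of the DNA replication genes and in 12.8% of all.

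Genes of skin T cells fell. Of 9 tested T and NK cell genes 8 were lower (median -2.24; a median of -0.52 over 18 genes with no filter), and the list mean was 4.86 to 6.26 at day 0 and 3.37 and 3.27 in the vehicle mice. Cd3g, a chain of the T cell receptor complex, was 6.40 to 8.10 at day 0 (median 6.95) and 3.17 and 3.22. It fell by 3.80 ± 0.39 (adjusted p = 6.15e-06). Cd3e was 8.12 to 9.37 at day 0 (median 8.59) and 6.41 and 6.43, and Cd7, an early T cell marker, 4.81 to 6.59 at day 0 (median 5.57) and 3.13 and 2.92, again with no overlap. Xcl1, a chemokine of T and NK cells, was not above background in either vehicle mouse (1.71 and 1.85), which makes its fall at least 2.61-fold (adjusted p = 5.16e-05). Only 9 of the 22 genes written in the list were tested. Cd3g, Cd7 and Xcl1 were dim in vehicle skin and passed the filter through other arrays, so their falls are in part a result of it.

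Antigen presentation on MHC class I and interferon-stimulated genes were lower as well. Among 13 immunoproteasome and class I genes 12 fell (median -0.87). Psmb9, an immunoproteasome subunit, was 8.48 to 9.67 at day 0 (median 9.30) and 5.85 and 5.55 in vehicle mice 2 and 3 and fell by 3.56 ± 0.38 (adjusted p = 7.88e-06). Tap1, a subunit of the transporter that loads peptides, was 9.37 to 10.15 at day 0 (median 9.73) and 6.89 and 7.40 and fell by 2.64 ± 0.27 (adjusted p = 5.90e-06). Nlrc5, the class I transactivator, fell by 1.47 ± 0.20 (adjusted p = 5.36e-05). Psmb8, the neighbouring subunit, fell by 2.89 ± 0.30 (adjusted p = 5.86e-06), but its other probe set stood at -0.24. Tap1 and Psmb9 point away from each other, with 225 bases between their start sites in GRCm38.p6 (positions 34187556 and 34187330 of chromosome 17), and the stretch before Tap1 is printed because both genes share it.
Tap1 (chr17:34187306-34187555, plus strand): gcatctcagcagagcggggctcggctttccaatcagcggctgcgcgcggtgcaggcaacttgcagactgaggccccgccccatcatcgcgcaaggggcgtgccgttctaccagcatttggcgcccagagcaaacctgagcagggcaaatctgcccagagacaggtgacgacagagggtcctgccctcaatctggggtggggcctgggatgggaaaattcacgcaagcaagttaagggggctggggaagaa
Neither TTCNNNGAA (STAT) nor the core of the interferon response element (GAAA repeated after a gap of 2 bases) occurs in it on either strand, which says only that these letters are not in this window. The interferon core occurred in 11 of 20 interferon-stimulated genes with a promoter and in 3.01% of all tested genes with one.

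Of 23 interferon-stimulated genes 10 fell and none rose (median -0.88; 0 higher and 4 lower without vehicle mouse 3). Usp18, a feedback inhibitor of interferon signalling, was 5.66 to 7.39 at day 0 (median 7.04) and 3.71 and 3.60 without overlap and fell by 3.17 ± 0.36 (adjusted p = 1.26e-05). Xaf1, an interferon-induced apoptosis factor, fell by 2.01 ± 0.35 (adjusted p = 4.31e-04, but a difference of -1.27 without vehicle mouse 2) and Ifih1, a sensor of double-stranded RNA, by 1.12 ± 0.21 (adjusted p = 6.25e-04). The first members written, Ifit1 and Ifit2, did not pass. Ifit1 was 3.10 to 6.31 at day 0 (median 4.17) and 4.27 and 3.83 and Ifit2 2.28 to 4.30 at day 0 (median 3.34) and 3.49 and 4.18, inside the day 0 range in both mice.

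Genes of the Janus kinase and STAT pathway gave 2 rises and 6 falls among 15 (median -0.39; 1 higher and 5 lower with the mouse block, 0 and 3 with the 4 arrays, fewer of both without either vehicle mouse, and medians of -0.25 with the 5 day 0 arrays, -0.13 without vehicle mouse 3 and -0.18 over 17 genes with no filter). The list holds feedback genes but also receptors, kinases and STAT factors. Both rises and most of the falls were among the latter. Cish, a STAT5-induced inhibitor, was 8.10 to 9.59 at day 0 (median 8.93) and 6.75 and 6.96 and fell by 2.07 ± 0.45 (adjusted p = 0.00190), and Tyk2, a kinase of interferon receptors, fell by 1.73 ± 0.21 (adjusted p = 2.34e-05).

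Cells and signals of innate immunity did not share a direction. Of 16 macrophage genes 7 rose and 1 fell (median 0.75; 3 higher and 1 lower with the mouse block, 2 and 0 with the 4 arrays, 2 and 0 without vehicle mouse 2, 3 and 1 without vehicle mouse 3, and a median of 0.23 over 21 genes with no filter). C1qc, a complement chain made by resident macrophages, was 2.65 to 4.11 at day 0 (median 3.74) and 5.77 and 5.32 and rose by 1.89 ± 0.32 (adjusted p = 3.04e-04). C1qa rose by 1.77 ± 0.34 (adjusted p = 7.82e-04). The pan-macrophage genes Csf1r, at -0.12 ± 0.33 (adjusted p = 0.782), and Adgre1, at 0.23 ± 0.41 (adjusted p = 0.662), did not pass. Each went up in mouse 2 and down in mouse 3 against its own array, by 0.45 and -0.59 for Csf1r and by 0.92 and -0.49 for Adgre1. The neutrophil markers S100a8, S100a9 and Lcn2 did not pass, and S100a8 stood at 4.24 and 3.41 in the vehicle mice against 3.57 to 4.84 at day 0 (median 4.40).

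Mast cell genes rose in 3 of 7 cases (median 1.34; 5 higher and 0 lower with the mouse block, 0 and 0 without vehicle mouse 3). Hdc, the histamine-forming enzyme, was 2.55 to 4.84 at day 0 (median 4.12) and 5.46 and 6.03. Among 11 Langerhans and dendritic cell genes 2 rose and 1 fell (median -0.17; 2 higher and 0 lower with the mouse block, 1 and 0 with the 4 arrays, 3 and 0 with the 5 day 0 arrays, 2 and 0 without vehicle mouse 2, 2 and 0 without vehicle mouse 3, 2 and 0 without day 0 mouse 7, and medians of -0.02 with the 5 day 0 arrays and -0.32 without vehicle mouse 3). Cd207, the Langerhans lectin, was 4.68 to 6.97 at day 0 (median 6.41) and 7.06 and 6.82 and did not pass at 1.01 ± 0.57 (adjusted p = 0.151). Zbtb46, a factor of dendritic and endothelial cells, rose by 2.23 ± 0.31 (adjusted p = 6.83e-05). The only tested gene of the B cell list, Ighm, stood at 0.40 ± 0.47 (adjusted p = 0.494), and no gene of the erythrocyte list was tested.

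Chemokine and cytokine genes split, with 4 of 16 higher and 5 lower (median close to 0; 2 higher and 6 lower with the mouse block, 2 and 4 without vehicle mouse 3). Ackr2, a scavenger receptor that clears inflammatory chemokines, was 7.72 to 9.23 at day 0 (median 8.13) and 3.80 and 2.88 in vehicle mice 2 and 3. It fell by 5.04 ± 0.42 (adjusted p = 1.24e-06). Cxcl14, a chemokine made constantly by epidermis, fell by 2.04 ± 0.24 (adjusted p = 1.47e-05). Cxcl13, a B cell chemokine, was 2.01 to 3.77 at day 0 (median 2.50) but 7.88 in vehicle mouse 2 and 4.18 in mouse 3. Its rise was 3.43 ± 0.65 (adjusted p = 7.42e-04, but 0.0657 with the mouse block, 0.158 with the 4 arrays, a difference of 1.66 without vehicle mouse 2, a difference of 5.33 without vehicle mouse 3). Ccl11, the eosinophil chemokine eotaxin, rose by 1.98 ± 0.31 (adjusted p = 1.50e-04) and Cxcl1, a neutrophil chemokine, by 1.98 ± 0.46 (adjusted p = 0.00293, but 0.0524 without vehicle mouse 3). Antimicrobial and alarmin genes fell in 8 of 13 cases (median -0.95; 0 higher and 5 lower with the mouse block, 0 and 4 with the 4 arrays, 1 and 8 with the 5 day 0 arrays, 0 and 5 without vehicle mouse 2, 0 and 4 without vehicle mouse 3, and a median of -0.52 over 20 genes with no filter). Not all genes that fell are alarmins, and the alarmins S100a8 and S100a9 did not pass. Il33 was 9.86 to 10.98 at day 0 (median 10.21) and 9.23 and 8.14 and fell by 1.58 ± 0.30 (adjusted p = 7.30e-04, but a difference of -1.04 without vehicle mouse 3), and Il1a fell by 1.75 ± 0.38 (adjusted p = 0.00174, but 0.0511 with the 4 arrays). In the NF-kB list 5 of 15 genes fell and 1 rose (median -0.41; 1 higher and 1 lower with the mouse block, 1 and 2 with the 4 arrays, 1 and 3 without vehicle mouse 2, 1 and 3 without vehicle mouse 3, and a median of -0.26 without vehicle mouse 3). The falls are close to the 28.9% of all genes that fell, and both vehicle list means lay within the day 0 range. The gene that rose was Vcam1, an adhesion molecule of vessels, by 2.19 ± 0.34 (adjusted p = 1.63e-04).

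**Figure D2:**
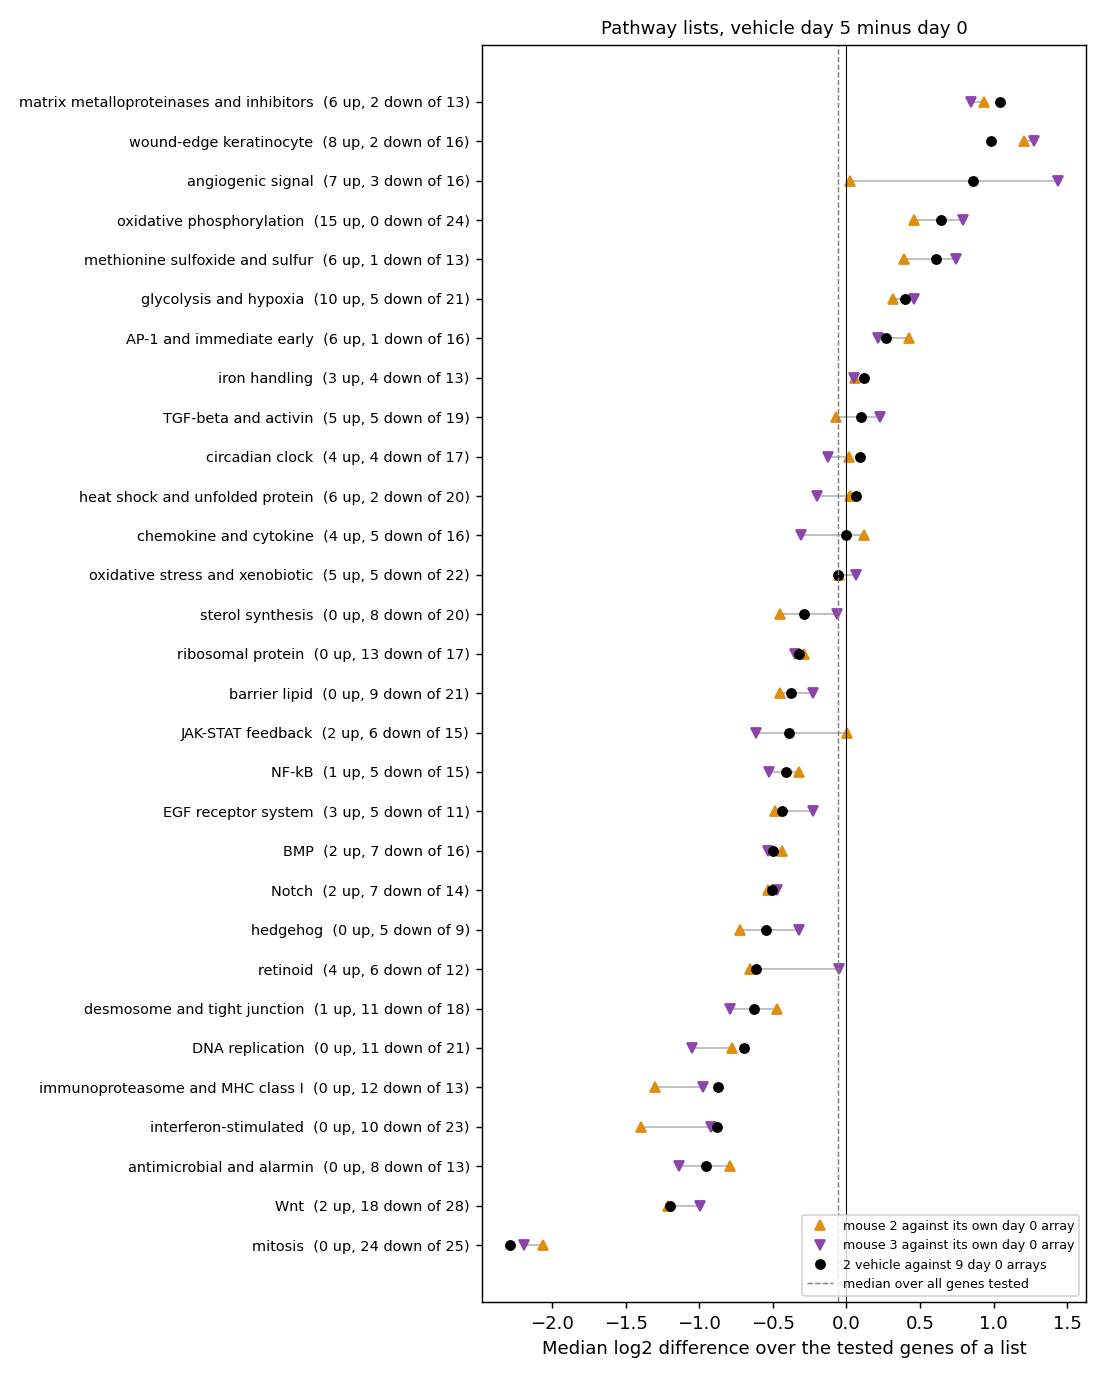
Median log2 difference (horizontal axis) over the tested genes of each pathway list, with the counts of members that rose and fell, drawn as in the plot of marker lists. Mitosis lies lowest at -2.29, and Wnt at -1.20, while proteases and wound-edge genes lie at 1.05 and 0.98 (0.24 and 0.78 with no filter on dim probe sets).

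Genes of the Wnt pathway, which drives follicle growth and basal cell renewal, were mostly lower. Of 28 Wnt genes 18 fell and 2 rose (median -1.20; 1 higher and 15 lower with the mouse block, 1 and 14 with the 4 arrays, 1 and 16 without vehicle mouse 3). Among the ligands, Wnt3 was 8.30 to 9.48 at day 0 (median 9.30) and 5.23 and 4.63 in vehicle mice 2 and 3 and fell by 4.09 ± 0.33 (adjusted p = 9.72e-07), and Wnt4 fell by 1.70 ± 0.30 (adjusted p = 4.30e-04). Wnt7b and Wnt16 fell by 2.71 ± 0.39 (adjusted p = 9.44e-05) and 2.56 ± 0.41 (adjusted p = 2.09e-04). Rspo3, a secreted amplifier of Wnt signals made by dermal cells, was 6.65 to 8.17 at day 0 (median 6.98) and 3.01 and 2.49, close to background, and fell by 4.51 ± 0.37 (adjusted p = 1.10e-06). The receptor Fzd10 was 5.32 to 6.61 at day 0 (median 6.03) and 2.99 and 1.89, and vehicle arrays lay below day 0 arrays in all these genes that are given by array. The 2 genes that rose encode secreted antagonists, but another secreted antagonist of the list fell and the rest did not pass. Inhibitors that act at the membrane or inside the cell fell too. Sfrp2 was 3.34 to 6.28 at day 0 (median 4.73) and 7.67 and 7.57 and rose by 3.03 ± 0.64 (adjusted p = 0.00158), and Dkk2 rose by 2.18 ± 0.46 (adjusted p = 0.00147, but 0.0610 with the mouse block, 0.121 with the 4 arrays, a difference of 1.40 with an adjusted p of 0.0640 without vehicle mouse 3).

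Of 16 genes of the BMP pathway, whose signals are known for holding follicle stem cells at rest, 7 fell and 2 rose (median -0.50; 1 higher and 5 lower with the mouse block, 0 and 4 with the 4 arrays, 1 and 7 with the 5 day 0 arrays, fewer of both without either vehicle mouse, 1 and 7 without day 0 mouse 7, 1 and 6 over 19 genes with no filter, and medians of -0.31 without vehicle mouse 3 and -0.11 over 19 genes with no filter). The list also holds inhibitors of the pathway, which include both genes that rose and an antagonist that fell. Bmp4 was 7.28 to 8.14 at day 0 (median 7.94) and 5.59 and 5.64 and fell by 2.24 ± 0.25 (adjusted p = 1.10e-05). In the hedgehog list 5 of 9 genes fell (median -0.55; 0 higher and 3 lower without vehicle mouse 2, 1 and 5 over 12 genes with no filter), with Boc, a co-receptor, at 8.84 to 9.66 at day 0 (median 9.31) and 6.86 and 7.36. Shh itself lay near background at 2.43 to 3.76 at day 0 (median 2.80) and 2.73 and 2.27. Of 14 Notch genes 7 fell and 2 rose (median -0.51; 1 higher and 4 lower with the mouse block, 1 and 5 with the 4 arrays, 1 and 5 without vehicle mouse 3, 4 and 7 over 17 genes with no filter, and a median of -0.28 over 17 genes with no filter). The epidermal receptor Notch1 fell by 1.66 ± 0.23 (adjusted p = 5.67e-05) and the ligand Jag2 by 2.09 ± 0.25 (adjusted p = 1.92e-05), whereas the genes that rose are known from vessels, Hey2 by 1.77 ± 0.25 (adjusted p = 7.03e-05) and Notch4 by 1.29 ± 0.37 (adjusted p = 0.00913, but 0.0720 with the mouse block, 0.176 with the 4 arrays, a difference of 2.003 without vehicle mouse 2, a difference of 0.54 with an adjusted p of 0.327 without vehicle mouse 3). TGF-beta and activin genes gave 5 rises and 5 falls among 19 (median 0.10; 5 higher and 2 lower with the mouse block, 2 and 3 with the 4 arrays, 3 and 3 without vehicle mouse 2, 4 and 3 without vehicle mouse 3). The type 1 receptor Tgfbr1 rose by 0.91 ± 0.15 (adjusted p = 2.27e-04, but 0.0633 with the 4 arrays) and the signal transducer Smad3 by 1.05 ± 0.18 (adjusted p = 2.95e-04), and the activin inhibitor Fstl3 fell by 1.87 ± 0.24 (adjusted p = 3.22e-05).

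In the follicle, 7 of 15 bulge genes fell and 1 rose (median -0.61; 0 higher and 5 lower with the mouse block, 0 and 3 with the 4 arrays, 0 and 10 with the 5 day 0 arrays, 0 and 8 without vehicle mouse 3), and 6 of 11 tested matrix and sheath genes fell (median -0.96; 1 higher and 9 lower over 25 genes with no filter, and a median of -0.32 over 25 genes with no filter). Fgf18, a growth factor of resting follicles, was 8.16 to 9.47 at day 0 (median 8.76) and 6.03 and 5.75 and fell by 2.93 ± 0.32 (adjusted p = 1.01e-05). Gata3, a factor of the inner root sheath and of T cells, fell by 2.18 ± 0.44 (adjusted p = 0.00105). Of the 26 matrix and sheath genes written, 15 were not tested. Dermal papilla genes went both ways, 3 higher and 4 lower of 11 (median -0.11, -0.72 in mouse 2 and 1.11 in mouse 3; 2 higher and 2 lower with the 4 arrays, and medians of -0.003 with the mouse block or the 4 arrays, -0.40 with the 5 day 0 arrays, 0.13 without vehicle mouse 2, -0.43 without vehicle mouse 3 and -0.03 over 16 genes with no filter). Fgf7, a keratinocyte growth factor made by fibroblasts, was 3.61 to 5.20 at day 0 (median 4.90) and 7.12 and 6.45 and rose by 2.05 ± 0.35 (adjusted p = 3.02e-04). Sebaceous genes fell in 5 of 13 cases (median -0.27; 0 higher and 2 lower with the 4 arrays, 0 and 3 without vehicle mouse 3, and a median of -0.14 with the mouse block or the 4 arrays), led by Scd3, a gland desaturase, at 6.82 to 9.17 at day 0 (median 7.78) and 5.25 and 5.20, and sterol synthesis genes in 8 of 20 (median -0.29; 0 higher and 5 lower with the mouse block, 0 and 3 with the 4 arrays, and a median of -0.52 with the 5 day 0 arrays). Beside falls in 28.9% of all genes, the excess was small in both lists. The sebaceous list means of 10.13 and 10.02 in vehicle mice 2 and 3 lay within the day 0 range of 9.83 to 10.96. Of 9 melanocyte genes none fell and 1 rose (median 0.25; 2 higher and 0 lower with the mouse block, 1 and 1 with the 5 day 0 arrays, 2 and 0 without day 0 mouse 7, and medians of 0.50 with the mouse block or the 4 arrays, 0.06 with the 5 day 0 arrays, 0.74 without vehicle mouse 2 and -0.26 without vehicle mouse 3), Ednrb, an endothelin receptor that vessels also carry, by 2.43 ± 0.44 (adjusted p = 5.48e-04).

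Below the epidermis, the list medians of vessels, fibroblasts, matrix, fat, nerve and muscle were positive. Beside rises in 22.2% of all genes, the adipocyte list had no excess of rises and the collagen and matrix list only a small one. Endothelial genes rose in 16 of 18 cases (median 2.17; 8 higher and 0 lower with the 4 arrays, 8 and 0 without vehicle mouse 3), and the list mean was 2.48 to 4.58 at day 0 and 5.84 and 6.30 in vehicle mice 2 and 3. Procr, the endothelial protein C receptor, was 2.65 to 4.13 at day 0 (median 3.19) and 7.62 and 7.61 and rose by 4.42 ± 0.31 (adjusted p = 3.54e-07), and by 4.51 and 4.42 against the own arrays. Vwf, which binds platelets, was 3.32 to 4.90 at day 0 (median 3.94) and 5.77 and 7.20 and rose by 2.46 ± 0.39 (adjusted p = 1.87e-04). With the 5 day 0 arrays 17 of the genes rose, with a median of 1.58. Lymphatic genes rose in 3 of 4 cases (median 1.15). Reln, a secreted protein of lymphatic and nerve cells, was 3.002 to 5.89 at day 0 (median 5.21) and 7.30 and 7.37. Among angiogenic signals 7 of 16 rose and 3 fell (median 0.86; 5 higher and 1 lower with the 4 arrays, 4 and 1 without vehicle mouse 3, and medians of 0.37 with the 5 day 0 arrays and 0.50 over 21 genes with no filter). Vegfa, the main vessel growth factor, was 5.86 to 7.39 at day 0 (median 6.55) and 9.78 and 8.07 and rose by 2.29 ± 0.35 (adjusted p = 1.46e-04, but a difference of 1.40 without vehicle mouse 2), its receptor Flt1 rose by 3.22 ± 0.63 (adjusted p = 9.03e-04), and Pdgfb fell by 1.52 ± 0.16 (adjusted p = 8.47e-06).

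**Figure D3:**
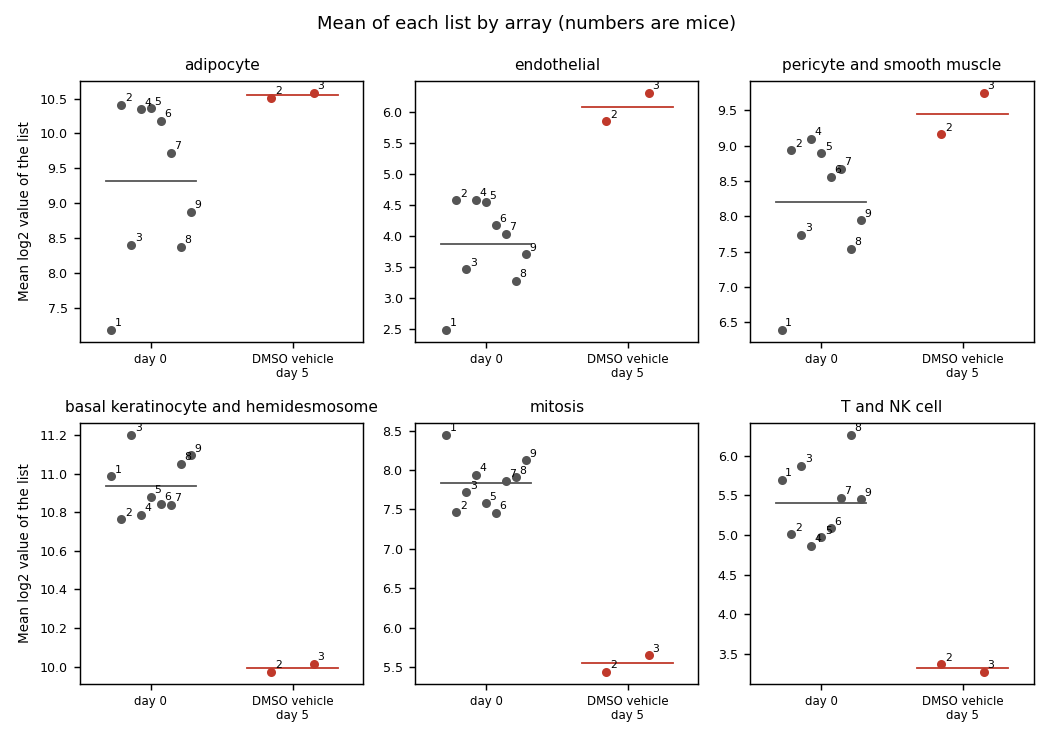
Mean log2 value of 6 marker and pathway lists (vertical axes) in each of the 9 day 0 arrays and the 2 vehicle arrays, with the mouse number beside each point and lines at the group means. The day 0 arrays of mice 1, 3, 8 and 9 are the lowest in the adipocyte, endothelial and pericyte lists, and the vehicle arrays lie above all day 0 arrays in the endothelial list and below all in the basal, mitosis and T and NK cell lists.

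Fibroblast genes rose in 10 of 16 cases and fell in 1 (median 1.15; 9 higher and 0 lower with the mouse block, 8 and 0 with the 4 arrays, 7 and 0 without vehicle mouse 2, 5 and 1 without vehicle mouse 3), and 10 rose with the 5 day 0 arrays. Clec3b, tetranectin, was 3.09 to 3.94 at day 0 (median 3.84) and 5.67 and 5.59 and rose by 1.94 ± 0.21 (adjusted p = 8.78e-06). Mfap5, a microfibril protein of deep dermis, rose by 2.19 ± 0.43 (adjusted p = 8.51e-04). Col1a1, a chain of the main fibrillar collagen, was 9.64 to 11.70 at day 0 (median 11.06) and 10.08 and 11.46, a difference of -1.24 in mouse 2 and 0.90 in mouse 3 from their own arrays. The group difference of -0.08 ± 0.44 (adjusted p = 0.893) did not pass, with a 95% interval of -1.02 to 0.86. Of 25 collagen and matrix genes 7 rose and 2 fell (median 0.75; 5 higher and 1 lower with the mouse block, 4 and 0 with the 4 arrays, 8 and 1 with the 5 day 0 arrays, 4 and 2 without vehicle mouse 2, 3 and 1 without vehicle mouse 3, and medians of 0.32 with the 5 day 0 arrays and 0.49 without vehicle mouse 3). Fn1, fibronectin of provisional wound matrix, was 5.46 to 7.35 at day 0 (median 6.38) and 8.48 and 8.25 and rose by 2.09 ± 0.38 (adjusted p = 5.22e-04), and Postn, periostin, fell by 0.93 ± 0.17 (adjusted p = 4.65e-04, but 0.0636 with the 4 arrays).

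Fat, vessel walls and nerve depended on the day 0 arrays used. Adipocyte genes rose in 2 of 12 cases (median 0.92; 1 higher and 0 lower with the 4 arrays, 2 and 1 with the 5 day 0 arrays, 0 and 0 without vehicle mouse 2, 0 and 0 without vehicle mouse 3, and a median of 0.23 with the 5 day 0 arrays). Cidec, a lipid droplet protein, was 3.53 to 9.74 at day 0 (median 8.37) and 10.08 and 10.33, which is 0.34 above the own day 0 array in mouse 2 and 5.90 in mouse 3. Lep, the fat hormone leptin, was 2.31 to 7.93 at day 0 (median 6.89) and 9.27 and 8.75 and rose by 3.20 ± 1.08 (adjusted p = 0.0231, but 0.0647 with the 4 arrays, 0.160 without vehicle mouse 2, 0.0899 without vehicle mouse 3, a difference of 1.70 with the 5 day 0 arrays). Pericyte and smooth muscle genes rose in 5 of 13 and fell in 1 (median 1.31, 0.30 in mouse 2 and 2.08 in mouse 3; 1 higher and 0 lower with the mouse block, 0 and 1 with the 4 arrays, 5 and 2 with the 5 day 0 arrays, 3 and 1 without vehicle mouse 2, 0 and 1 without vehicle mouse 3, and a median of 0.72 with the 5 day 0 arrays). Schwann and nerve genes rose in 6 of 9 (median 1.92; 3 higher and 0 lower with the 4 arrays, 3 and 1 without vehicle mouse 2, 2 and 0 without vehicle mouse 3, and medians of 1.15 with the 5 day 0 arrays and 1.18 over 12 genes with no filter). Cntnap2, an adhesion protein of myelinated axons, belongs to this list. It was 2.22 to 3.21 at day 0 (median 2.54) and 7.42 and 7.09 in the vehicle mice, a rise of 4.65 ± 0.28 (adjusted p = 1.25e-07).

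Genes of striated muscle were higher. Of 22 fast muscle genes 15 rose (median 0.73; 7 higher and 0 lower with the mouse block, 1 and 0 with the 4 arrays, 5 and 0 without vehicle mouse 2, 3 and 0 without vehicle mouse 3, and a median of 0.38 with the 5 day 0 arrays). Casq1, the calcium store protein of fast fibres, was 10.80 to 11.92 at day 0 (median 11.54) and 12.69 and 12.60. Slow and developmental genes rose in 13 of 21 cases and fell in 1 (median 2.003, 1.47 with the 5 day 0 arrays; 11 higher and 0 lower with the 4 arrays, 7 and 0 without vehicle mouse 2). Tnnt1, slow troponin T, was 2.81 to 4.59 at day 0 (median 3.35) and 9.82 and 8.51 in vehicle mice 2 and 3, the largest named rise at 5.69 ± 0.73 (adjusted p = 3.64e-05). Actc1, the cardiac actin that developing muscle also uses, was 2.51 to 3.74 at day 0 (median 2.87) and 7.04 and 9.32 and rose by 5.33 ± 0.45 (adjusted p = 1.28e-06). Mybph, a myosin-binding protein, was 5.11 to 7.01 at day 0 (median 6.20) and 10.56 and 11.28, and rose by 4.77 ± 0.43 (adjusted p = 1.91e-06).

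The 2 vehicle mice differed within this list. All of Tnnt1, Myl2, Myh7, Tnnc1, Myl3 and Tnni1, which are known from adult slow fibres, were higher in mouse 2 than in mouse 3. Tnnt1, above, and Myl2, a slow myosin light chain, were above every day 0 array in both mice. Myl2 was 2.61 to 4.79 at day 0 (median 2.87) and 9.83 and 7.06 in vehicle mice 2 and 3, and rose by 5.30 ± 0.84 (adjusted p = 1.91e-04). The others were near the day 0 range in mouse 3. Myh7, the slow myosin heavy chain, was 2.76 to 3.15 at day 0 (median 2.96), 8.63 in mouse 2 and 3.17 in mouse 3, and its difference of 2.96 ± 1.22 (adjusted p = 0.0544) did not pass. Tnnc1, slow troponin C, was 8.45 and 3.996 against 2.57 to 3.46 at day 0 (median 3.05). Myl3, another slow myosin light chain, was 7.78 and 3.87 against 2.33 to 3.55 at day 0 (median 2.60). The cardiac actin and the perinatal myosin Myh8 had the reverse order. Myh8 was 3.19 to 5.39 at day 0 (median 4.60), 6.15 in mouse 2 and 7.61 in mouse 3, a rise of 2.50 ± 0.57 (adjusted p = 0.00255, but 0.0678 with the mouse block, 0.104 with the 4 arrays, 0.0735 without vehicle mouse 3). With 1 mouse on each side this difference between mice has no test.

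**Figure D4:**
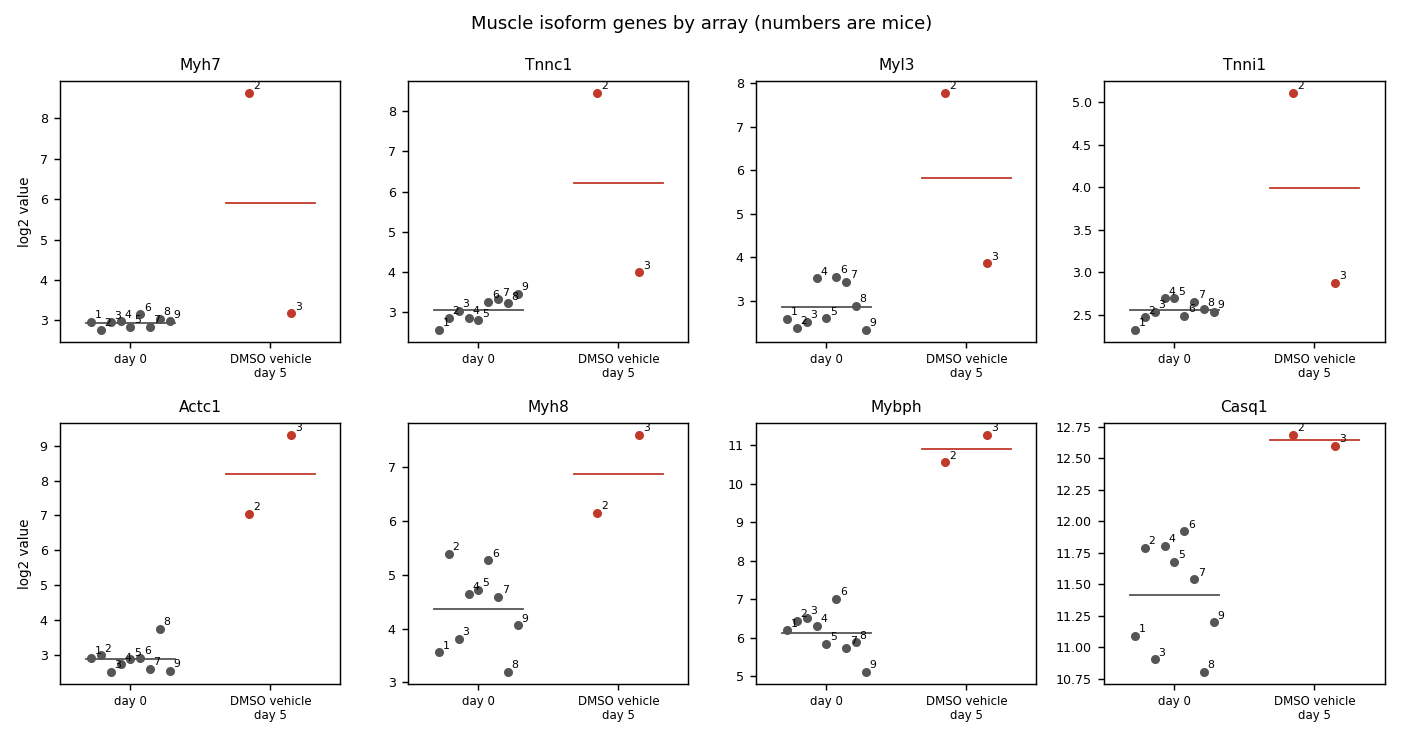
log2 values (vertical axes) of 8 muscle genes in each of the 9 day 0 arrays and the 2 vehicle arrays, with the mouse number beside each point and lines at the group means. Myh7, Tnnc1, Myl3 and Tnni1 are high in vehicle mouse 2 and close to the day 0 arrays in mouse 3, Actc1 and Myh8 are higher in mouse 3, and Casq1 rises in both.

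Mitochondrial genes were higher. Oxidative phosphorylation genes rose in 15 of 24 cases and none fell (median 0.65; 2 higher and 0 lower with the 4 arrays, 5 and 0 without vehicle mouse 2, 6 and 0 without vehicle mouse 3). The list mean was 11.03 to 12.07 at day 0 and 12.40 and 12.42 in vehicle mice 2 and 3, and the fast muscle list mean, 12.03 to 12.98 and 13.22 and 13.32, moved with it. Both were lowest in the day 0 array of mouse 1, had their day 0 maximum in mouse 6 and were above all day 0 arrays in both vehicle mice. The list holds the muscle isoforms Cox6a2, Cox7a1 and Cox8b, and the part of muscle in the rise was not tested. Ppargc1a, the coactivator that drives mitochondrial growth, was 6.89 to 9.30 at day 0 (median 7.85) and 11.48 and 11.09 in vehicle mice 2 and 3. It rose by 3.17 ± 0.51 (adjusted p = 2.04e-04), and by 3.17 to 4.20 on its other probe sets. Glycolysis and hypoxia genes gave 10 rises and 5 falls among 21 (median 0.40; 5 higher and 2 lower with the mouse block, 4 and 2 with the 4 arrays, 4 and 5 without vehicle mouse 2, 6 and 2 without vehicle mouse 3). Hexokinases went opposite ways. Hk1 was 9.76 to 10.28 at day 0 (median 9.95) and 8.62 and 7.79 and fell by 1.73 ± 0.31 (adjusted p = 4.31e-04), and Hk2, the muscle and fat form, was 10.29 to 11.97 at day 0 (median 11.43) and 12.74 and 12.43 and rose by 1.37 ± 0.35 (adjusted p = 0.00481, but 0.0798 without vehicle mouse 2). Hypoxia-responsive Adm, the vessel-dilating peptide adrenomedullin, rose by 1.79 ± 0.29 (adjusted p = 2.23e-04) and Ndrg1 by 1.08 ± 0.14 (adjusted p = 2.94e-05). Ribosomal protein genes were slightly lower, 13 of 17 (median -0.32; 0 higher and 1 lower with the mouse block, 0 and 0 with the 4 arrays, 0 and 5 with the 5 day 0 arrays, 0 and 2 without vehicle mouse 2, 0 and 7 without vehicle mouse 3).

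The circadian clock, a feedback loop in which Per and Cry proteins repress Arntl and Clock, showed 4 rises and 4 falls among 17 genes (median 0.09). The sampling hour that sets such genes is not given. Cry1 was 8.38 to 9.49 at day 0 (median 8.90) and 11.33 and 10.80 and rose by 2.12 ± 0.24 (adjusted p = 1.25e-05). Nfil3, a repressor of clock output, was 5.76 to 7.45 at day 0 (median 6.51) and 9.50 and 8.90 and rose by 2.63 ± 0.34 (adjusted p = 3.61e-05), and Per2 rose by 2.20 ± 0.33 (adjusted p = 1.27e-04), with 0.63 on its other probe set. Both vehicle arrays lay above all day 0 arrays in these 3 genes. Nr1d1, the repressor REV-ERB alpha, was 8.77 to 10.25 at day 0 (median 9.71) and 7.50 and 8.10 and fell by 1.91 ± 0.34 (adjusted p = 4.78e-04), and Npas2, a partner of Arntl, fell by 1.99 ± 0.30 (adjusted p = 1.17e-04). Arntl, at -0.22 ± 0.28 (adjusted p = 0.538), and Clock, at -0.15 ± 0.15 (adjusted p = 0.416), did not pass.

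Vitamin A genes also divided. Of 12 retinoid genes 4 rose and 6 fell (median -0.61; 2 higher and 4 lower with the 4 arrays, 1 and 6 without vehicle mouse 2, 2 and 5 without vehicle mouse 3, and medians of -0.40 with the mouse block or the 4 arrays, -0.36 without vehicle mouse 2 and -0.15 over 17 genes with no filter). Aldh1a3, which makes retinoic acid, was not above background in any day 0 array (1.67 to 2.43) and read 5.91 and 3.72 in the vehicle mice, at least 5.22-fold higher (adjusted p = 4.55e-04, with a log2 difference of 2.78 that is 1.68 without vehicle mouse 2). The retinoic acid receptors moved both ways. Rarb rose by 1.21 ± 0.27 (adjusted p = 0.00224, but a difference of 0.63 with an adjusted p of 0.146 without vehicle mouse 2). Rarg fell by 1.24 ± 0.18 (adjusted p = 9.83e-05) and its partner Rxra by 0.91 ± 0.10 (adjusted p = 1.40e-05). Rxra was 11.04 to 11.21 at day 0 (median 11.13) and 10.18 and 10.27, without overlap.

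In the methionine sulfoxide and sulfur list, chosen because DMSO is a sulfoxide, 6 of 13 genes rose and 1 fell (median 0.61; 3 higher and 1 lower with the mouse block, 2 and 1 with the 4 arrays, 1 and 1 without vehicle mouse 2, 3 and 1 without vehicle mouse 3). The list mean was 7.99 to 9.02 at day 0 and 9.10 and 8.86 in vehicle mice 2 and 3, so mouse 3 lay within the day 0 range. As in the oxidative phosphorylation and fast muscle lists, the day 0 mean was lowest in mouse 1 and highest in mouse 6. The part of the solvent or of muscle in these rises was not tested. Of the reductases that repair oxidised methionine, Msrb2 rose by 0.98 ± 0.26 (adjusted p = 0.00697, but 0.101 without vehicle mouse 2) and Msra, at 0.47 ± 0.29 (adjusted p = 0.175), did not pass. Steps of cysteine synthesis opposed each other. Cbs was 9.32 to 10.17 at day 0 (median 9.71) and 6.63 and 6.30 and fell by 3.29 ± 0.49 (adjusted p = 1.09e-04), and Cth, the next enzyme, was 3.38 to 4.72 at day 0 (median 4.06) and 6.05 and 5.43 and rose by 1.63 ± 0.30 (adjusted p = 5.13e-04). Oxidative stress and xenobiotic genes gave 5 rises and 5 falls among 22 (median -0.06; 3 higher and 3 lower with the mouse block, 2 and 3 with the 4 arrays, 2 and 3 without vehicle mouse 2, 3 and 3 without vehicle mouse 3). Srxn1, sulfiredoxin, was 8.48 to 9.09 at day 0 (median 8.88) and 10.97 and 10.54 and rose by 1.91 ± 0.16 (adjusted p = 1.13e-06), whereas Nqo1, which the same stress factor NRF2 is known to induce, stood at -0.11 ± 0.22 (adjusted p = 0.695). Heat shock and unfolded protein genes gave 6 rises and 2 falls among 20 (median 0.07; 3 higher and 1 lower with the mouse block, 1 and 1 with the 4 arrays, 2 and 0 with the 5 day 0 arrays, 2 and 1 without vehicle mouse 2, 4 and 1 without vehicle mouse 3, 5 and 4 without day 0 mouse 7), Dnajb9 rising by 1.22 ± 0.20 (adjusted p = 2.19e-04).

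Iron genes gave 3 rises and 4 falls among 13 (median 0.12; 3 higher and 2 lower with the mouse block, 1 and 3 with the 4 arrays, 1 and 3 without vehicle mouse 2, 2 and 2 without vehicle mouse 3, and medians of -0.05 without vehicle mouse 2 and -0.07 over 14 genes with no filter). Hamp2, a gene related to the iron hormone hepcidin, was 9.87 to 11.44 at day 0 (median 10.40) and 5.22 and 6.002 and fell by 4.87 ± 0.48 (adjusted p = 4.57e-06). Tfrc, the transferrin receptor, rose by 1.02 ± 0.13 (adjusted p = 2.77e-05) and the iron exporter Slc40a1 fell by 1.34 ± 0.24 (adjusted p = 4.56e-04).

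Steep falls outside the lists named above were chosen by size, among genes in which the arrays did not overlap and both mice fell. Slc16a14, of the monocarboxylate transporter family, was 7.55 to 9.07 at day 0 (median 8.72) and 3.49 and 2.90, and fell by 5.22 ± 0.46 (adjusted p = 1.79e-06). Art4, an ADP-ribosyltransferase of the cell surface, was 6.94 to 8.02 at day 0 (median 7.39) and 2.69 and 3.14, and Slc2a5, the fructose transporter, 6.55 to 7.80 at day 0 (median 6.96) and 3.13 and 2.29. All vehicle arrays lay below all day 0 arrays in these genes. Kcnj16, a potassium channel, fell by 4.56 ± 0.32 (adjusted p = 3.54e-07) and Gna14, a G protein subunit, by 4.52 ± 0.31 (adjusted p = 3.15e-07). Steep rises outside the lists were Cytl1, a secreted cytokine-like protein, at 1.37 to 2.70 at day 0 (median 1.76) and 6.07 and 6.92, Kcnc4, a voltage-gated potassium channel, by 4.37 ± 0.45 (adjusted p = 5.75e-06) with 2.07 on its other probe set, and Prima1, which anchors acetylcholinesterase in membranes, by 4.18 ± 0.32 (adjusted p = 6.14e-07).

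At the same day, vehicle skin was set against skin given either inhibitor, a comparison that leaves the day 0 arrays out. Here 113 of the 12087 genes differed (0.935%), 12 higher (0.0993%) and 101 lower (0.836%) in vehicle skin. Without vehicle mouse 2 it was 0 by limma (with 941 genes at an unadjusted p under 0.05), without vehicle mouse 3 it was 22, and without the tofacitinib array of mouse 9 it was 374. Without one of the other inhibitor arrays it was 48 to 83. Of 9 melanocyte genes 5 were lower in vehicle than in inhibitor skin. Tyrp1, a melanin enzyme, was 4.09 and 5.11 in vehicle mice 2 and 3 and 7.24 to 8.36 in the 5 inhibitor arrays, lower by 3.27 ± 0.43 (adjusted p = 0.00341). Pmel, the melanosome matrix protein, was 3.70 and 4.09 against 6.40 to 7.89, lower by 3.11 ± 0.35 (adjusted p = 0.00184). Vehicle and inhibitor arrays did not overlap in either gene, whereas Tyrp1 at 3.11 to 4.95 at day 0 (median 4.39) overlapped with vehicle skin.

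Envelope and mitosis genes were also lower in vehicle than in inhibitor skin in part. Of the 26 envelope genes 7 were lower, with a list median of -1.10. Lce1i was 10.65 and 10.51 against 11.48 to 12.07, lower by 1.14 ± 0.23 (adjusted p = 0.0351), and Tgm3, a transglutaminase of the envelope, was lower by 2.87 ± 0.45 (adjusted p = 0.00823). Among 25 mitosis genes 3 were lower (list median -1.37), Bub1b by 1.96 ± 0.38 (adjusted p = 0.0327). For basal keratinocyte, T and NK cell, endothelial and class I genes the list medians were -0.17, 0.10, 0.33 and -0.06, and none of these genes passed. That does not show that they were alike. Higher in vehicle were Mmp10, at 8.76 and 8.19 against 4.15 to 6.18, by 3.51 ± 0.54 (adjusted p = 0.00823), and Cntnap2, at 7.42 and 7.09 against 4.82 to 6.21, by 2.02 ± 0.31 (adjusted p = 0.00823). The related Mmp3 was 10.34 and 9.41 against 7.41 to 9.07 and did not pass (adjusted p = 0.0869). Rel, an NF-kB subunit, was lower by 2.32 ± 0.28 (adjusted p = 0.00184), but its level differed between the inhibitor groups. It read 4.39 and 4.19 in vehicle, 8.53 and 8.37 in ruxolitinib skin, and 5.37, 4.24 and 4.80 in tofacitinib skin.

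**Figure D5:**
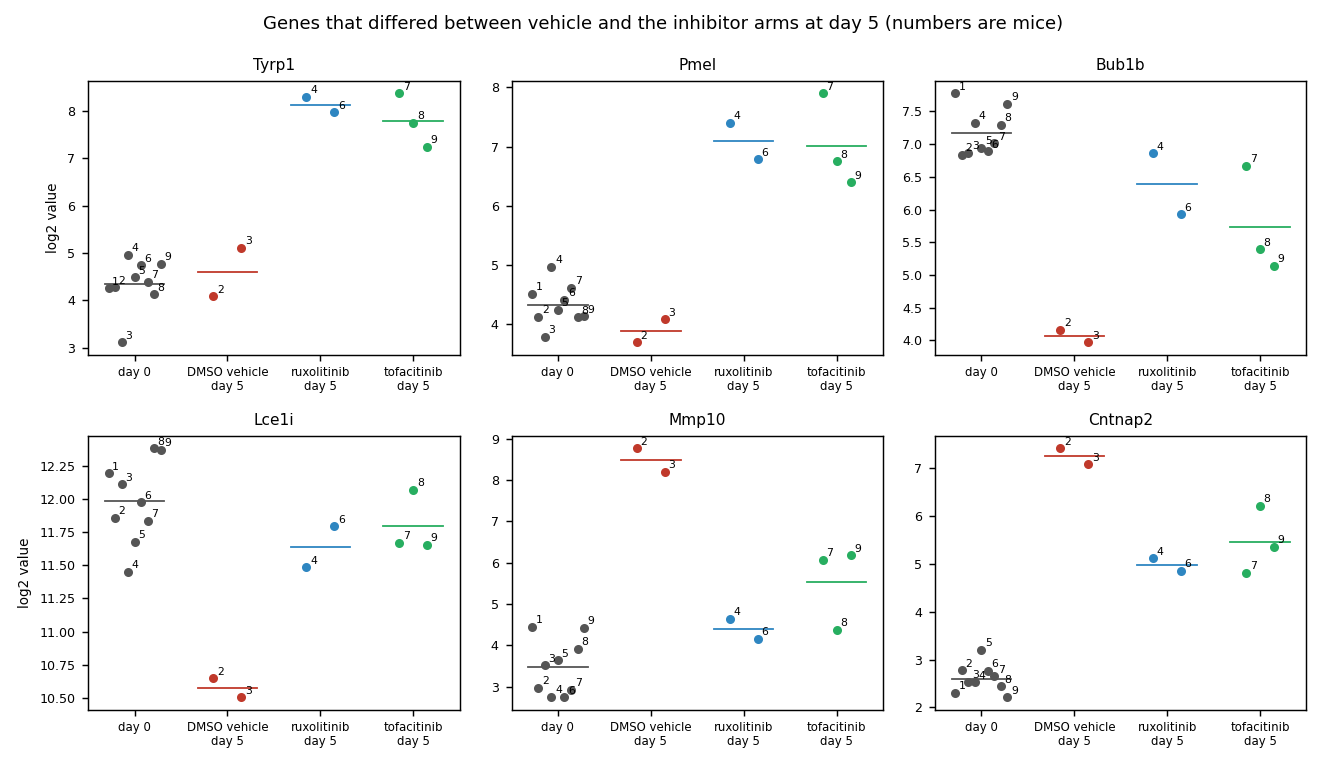
log2 values (vertical axes) of 6 genes that differed between vehicle and inhibitor skin, in every array of the 4 groups, with the mouse number beside each point and lines at the group means. Tyrp1 and Pmel are at day 0 levels in vehicle and high in all 5 inhibitor arrays, Bub1b and Lce1i are lowest in vehicle, and Mmp10 and Cntnap2 are highest in vehicle.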

How the data were processed

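RNA of flash-frozen dorsal whole skin was extracted with a Qiagen RNeasy micro kit, amplified with Nugen Ovation, labelled with biotin and hybridised to Affymetrix mouse genome arrays, per the labels' protocols. The authors deposited log2 values for 45101 probe sets on 16 arrays, made with GCRMA per the submitters' processing notes (no version is stated, nor whether the arrays were processed jointly). GCRMA subtracts a background modelled from probe sequence, so dim values gather near a floor and fold changes of dim genes are compressed. The number of arrays limits the precision.

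Samples were grouped by title. GEO's platform table gave 1 gene symbol for 34958 probe sets, several for 932, and does not list 9211; only those with 1 symbol were used, and 34754 were matched by Entrez ID to current symbols, of which 0 changed. A probe set was kept with a log2 value above 4 in at least 2 arrays. Some genes had no day 0 value above 4, so they were kept through day 5 arrays alone. They include Actc1, Cntnap2, Cytl1, Myh7, Aldh1a3, Tnnc1, Myl3, Clec3b, Plaur, Cxcl13 and Ccl11. That such genes rise is in part a result of the filter. Others had no vehicle value above 4, so they were kept through other arrays. They include Fzd10, Rspo3, Cd3g, Cd7, Xcl1, Usp18, Mmp9, Ackr2, Slc16a14, Art4 and Slc2a5. That these fall is likewise in part a result of the filter. The kept probe set of highest mean over all arrays stood for its gene, and 5297 of 12087 genes had more than 1. Among the 166 genes named here 50 had more than 1. In 17 of these another kept probe set differed from the one used by over 1 log2 unit, and the text gives its value for only some. Of the named genes that changed, 0 had a kept probe set of the opposite sign. limma 3.58.1 (R 4.3.3) fitted the means of 4 groups over 16 arrays, mouse being a random block (consensus correlation 0.0982) and eBayes, and p-values were Benjamini-Hochberg adjusted over all genes. The code was tested on simulated data. Same-numbered samples are the same mouse, per the labels. Deviations from the group means correlated at -0.18 to 0.18 over the 7 pairs, above 0.1 in 2.

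Alternatives were a fixed mouse block, no block, only the groups compared, other filters and probe set rules, median centring, quantile normalization, a robust trended prior, a minimum change, and leaving out day 5 arrays. The subset of 5 day 0 arrays and the omission of day 0 mouse 7 were added after seeing the data.

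Members and lists were chosen with earlier results of these data known, so a list's direction is not independent evidence. Genes were named by a rule: the 15 largest rises and falls past the threshold without overlap of arrays and with the same sign in both mice (without predicted genes), and from each list the first 2 tested members and the 4 of smallest p, of which the text prints some. Outside the rule, Atf3, Ccnb2, Cox6a2, Cox7a1, Cox8b, Dkk2, Egf, Ereg, Hbegf, Hk2, Itgb1, Mmp9, Myh8, Myl3, Notch4, Nr1d1, Rarb, Rel, Sfrp2, Tgm3, Tnnc1, Tnni1, Wnt16 and Wnt7b were chosen after their values were seen. Promoters are the 250 bases before the RefSeq start site, and a gene holds a motif if any of its listed promoters does.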

Additional observations from a re-analysis of the deposited data

Results flagged for a closer look

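Among 218 gene levels and list means over the 9 day 0 arrays, 16 had 1 array apart from the rest by Dixon's test at 95%, which is 7.34% of them, while chance alone picks out about 5% of groups. That number is not far above the chance share, and the single values below are a description. Of these, 5 were the day 0 array of mouse 7, in genes of the early stress response. There the mean of the AP-1 and immediate early list was 10.03 against 8.02 to 9.01 in the other 8 arrays, Fosl1 was 8.47 against 2.56 to 5.32, Fosb 9.61 against 2.82 to 6.23, Nr4a3 10.08 against 5.55 to 7.80 and Hbegf 7.68 against 5.17 to 6.18. Fosl1 and Fosb belong to that list, so the 3 are not separate observations. The same array was not apart in its fat, vessel or keratinocyte list means.

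The day 0 array of mouse 1, which had the lowest adipocyte and endothelial list means, was also low in C1qa of macrophages (2.47, others 3.36 to 4.11), Ccl11 (1.53, others 2.38 to 3.08), Nr1d1 (8.77, others 9.57 to 10.25) and the muscle isoforms Cox7a1 (8.70, others 10.09 to 11.28) and Cox8b (9.78, others 11.43 to 12.62). Mouse 8 was high in Actc1 (3.74, others 2.51 to 2.99) and Ndrg1 (11.74, others 11.30 to 11.51) and low in Lcn2 (2.09, others 2.81 to 3.36). Single arrays were low in Egfr in mouse 6 (10.59, others 10.86 to 11.13), Maff in mouse 4 (3.77, others 5.12 to 6.08) and Tyrp1 in mouse 3 (3.11, others 4.13 to 4.95).

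Of the 166 genes named here, 11 differed between vehicle and inhibitor skin at day 5 by the direct contrast in limma, beside 113 of all 12087 genes (0.935%). Some of the 11, such as Rel and Tgm3, were named after their values were seen, so the 2 shares cannot be compared. The contrast depended on which day 5 arrays were kept, as given above. Lower in vehicle by log2 differences were Tyrp1 at -3.27, Pmel at -3.11, Shh at -3.23, Tgm3 at -2.87, Rel at -2.32, Bub1b at -1.96, Kif11 at -1.76, Mki67 at -1.46 and Lce1i at -1.14, with adjusted p from 0.00184 (Pmel and Rel) to 0.0488 (Kif11). Higher were Mmp10 at 3.51 and Cntnap2 at 2.02 (both adjusted p = 0.00823). Shh, the ligand of the hedgehog pathway, was 2.73 and 2.27 in vehicle mice 2 and 3 and 3.90 to 7.45 in the 5 inhibitor arrays, without overlap. No day 0 or vehicle value of Shh was above 4, so it passed the filter only through inhibitor arrays in which it is high. Its difference and lack of overlap are in part a result of that filter.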

How the results depend on the processing

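Of 166 printed genes 115 kept both direction and call in every alternative that was run, and 46 of 53 lists kept the sign of their median. The count of 6178 changed genes (2685 higher, 3493 lower) became 3701 with the mouse as a fixed replicate block (1564 higher, 2137 lower), 2604 with that block on the 2 vehicle mice alone (1058 higher, 1546 lower), and 3071 at a log2 change of at least 1 (1344 higher, 1727 lower). Against the own day 0 arrays with pooled spread 1531 were higher. Leaving out either vehicle mouse or day 0 mouse 7 gave 3470 to 6072 (1202 to 2612 higher, 2268 to 3460 lower). The 113 genes between vehicle and inhibitors became 71 with no filter on dim probe sets (59 lower), and 0 to 374 when 1 day 5 array was left out (0 to 53 higher, 0 to 321 lower).

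Medians near 0 changed sign. Chemokine and cytokine genes came to 0.0617 with the 5 day 0 arrays, 0.0479 with a filter at 6, 0.0235 with no filter, 0.0321 for the mean of probe sets, 0.0918 after median centring, 0.0670 after quantile normalization, 0.0213 with only the groups compared, 0.130 with the mouse block or own arrays, and -0.0785 to 0.0566 without a vehicle mouse. Dermal papilla genes came to 0.0107 after quantile normalization and -0.426 to 0.133 without a vehicle mouse, heat shock genes to -0.0190 with the mouse block or own arrays and -0.0364 to 0.191 without a vehicle mouse, and iron genes to -0.0658 with a filter at 6, -0.0660 with none and -0.0458 to 0.135 without a vehicle mouse. Melanocyte genes ran from -0.259 to 0.740 without a vehicle mouse. Oxidative stress genes came to 0.0387 after median centring and -0.251 to 0.131 without a vehicle mouse, and the B cell list with its 1 gene Ighm to -0.0298 with the 5 day 0 arrays.

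None of the genes that changed sign passed the test in the reported fit. Arntl came to 0.0272 with the mouse block or own arrays and 0.0346 with the 5 day 0 arrays. Leaving out a vehicle mouse gave -0.278 to 0.00260 for Clock, -0.956 to 0.256 for Flg, -0.468 to 0.225 for Nqo1, -0.259 to 0.740 for Tyrp1, -0.749 to 0.615 for Col1a1, -0.290 to 0.0406 for Csf1r and -0.0201 to 0.0374 for Dsp. Col1a1 came to 0.306 and Dsp to -0.528 for the mean of probe sets (where Dsp passed in limma, adjusted p = 0.0145), Col1a1 to 0.0190 after median centring, and Csf1r to 0.0262 by its probe set of lowest change and 0.189 with the 5 day 0 arrays. The cause of these changes was not tested. With 2 vehicle mice, 1 later time point and no skin without solvent at day 5, solvent, biopsy and time cannot be told apart. Nor can they be told apart from a difference in the layers each biopsy took in. Dim genes have compressed differences.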
